A study of Mus musculus with 12 samples.

Results

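The 6 transcription factor genes described here are the 3 orphan nuclear receptors of the NR4A family (Nr4a1, Nr4a2 and Nr4a3) and 3 zinc finger factors of the EGR family (Egr1, Egr2 and Egr3). They were selected by gene symbol from the 53465 genes in a table of RNA-seq counts of LSKs, the Lin- Sca1+ c-Kit+ cells of mouse BM that hold the HSCs and multipotent progenitors. NR4A receptors and EGR factors are encoded by immediate-early genes, which kinase and calcium signals switch on within minutes from promoters that need no new protein. NR4A receptors then act without a known natural ligand, so their amount sets much of their activity, and in HSCs both Nr4a1 and Egr1 are known for their links to quiescence.

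The study compared Tespa1+/+ and Tespa1-/- mice in order to learn what TESPA1, a protein of thymocyte signaling, does in HSCs under stress. There were 4 groups with 3 libraries each: LSKs of untreated Tespa1+/+ mice, of untreated Tespa1-/- mice, and of both genotypes at day 9 after a single intraperitoneal injection of 5-fluorouracil (5-FU, 150 mg/kg), which kills cycling cells and forces HSCs to regenerate the blood. The mice were males of 8 to 10 weeks from a constitutive knockout line backcrossed to C57BL/6, in which the allele is carried by every cell type, and the untreated controls were labelled as littermates. The labels did not say whether each library came from 1 mouse or from pooled mice, so p-values measure the spread between libraries.

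Library totals ran from 22118154 to 28275079 counts, and 3 counts, taken as the limit of detection, equaled 0.107 to 0.136 CPM (counts scaled by library total and TMM factor), a limit that covers counting error only. Tespa1 itself was at 43.0 to 49.8 CPM in untreated Tespa1+/+ LSKs against 34.5 to 34.9 CPM in Tespa1-/- LSKs, and at 47.2 to 57.5 against 17.3 to 20.8 CPM after 5-FU, so that reads on the targeted gene were not absent. Between the untreated groups its call (adjusted p = 0.0316, edgeR) held in 1 of the 6 fits that left out 1 library, and after 5-FU (adjusted p = 9.38e-05) in all 6. Among the markers of the gate, Kit was at 329 to 474 CPM and Ly6a, which encodes Sca1, at 10.6 to 45.2 CPM over the 12 libraries. The summed level of 8 neutrophil genes was 0.770 to 1.36 CPM in untreated Tespa1+/+ LSKs, 4.61 to 5.85 CPM in untreated Tespa1-/- LSKs, 3.66 to 8.42 CPM in Tespa1+/+ LSKs after 5-FU and 992 to 994 CPM in Tespa1-/- LSKs after 5-FU. In that last group the 3 libraries also stood apart in 6 erythroid genes (294 to 329 CPM against 24.4 to 37.6 CPM in Tespa1+/+ after 5-FU) and in 10 LSK and stem cell genes (769 to 844 CPM against 1292 to 1344 CPM).

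Promoter sequences are printed for the 3 NR4A genes, so that motifs known to take up kinase and calcium signals can be compared among them, and for Egr2, which was not called in any comparison. Promoter windows from 250 bases before to 50 bases after a transcript start were taken from RefSeq (GRCm38.p6). Those of 4 of the 6 members were examined. The promoters of the other members were not examined, so the motifs of the families as a whole were not compared. The stretches below lie outside annotated exons. In GENCODE M21 the Nr4a1 gene starts at 101254269, so the Nr4a1 stretch lies inside the annotated gene. Capitals mark the core of the cAMP response element, TGACG on either strand. In Egr2 they also mark a CArG box, to which serum response factor binds.
Nr4a1 (chr15:101266596-101266845, plus strand): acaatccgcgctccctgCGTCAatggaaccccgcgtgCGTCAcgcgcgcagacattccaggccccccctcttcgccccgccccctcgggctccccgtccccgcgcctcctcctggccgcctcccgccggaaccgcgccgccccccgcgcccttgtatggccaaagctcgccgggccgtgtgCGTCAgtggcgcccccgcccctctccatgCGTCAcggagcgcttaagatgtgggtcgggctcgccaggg
Nr4a2 (chr2:57124004-57124253, minus strand): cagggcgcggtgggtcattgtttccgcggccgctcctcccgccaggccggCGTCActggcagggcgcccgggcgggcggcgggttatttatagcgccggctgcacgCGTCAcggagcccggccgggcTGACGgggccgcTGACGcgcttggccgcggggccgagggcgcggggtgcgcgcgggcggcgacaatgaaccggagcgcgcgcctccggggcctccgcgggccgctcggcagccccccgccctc
Nr4a3 (chr4:48045055-48045152, plus strand): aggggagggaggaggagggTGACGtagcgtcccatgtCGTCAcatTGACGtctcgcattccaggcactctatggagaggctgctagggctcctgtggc
Egr2 (chr10:67537619-67537868, plus strand): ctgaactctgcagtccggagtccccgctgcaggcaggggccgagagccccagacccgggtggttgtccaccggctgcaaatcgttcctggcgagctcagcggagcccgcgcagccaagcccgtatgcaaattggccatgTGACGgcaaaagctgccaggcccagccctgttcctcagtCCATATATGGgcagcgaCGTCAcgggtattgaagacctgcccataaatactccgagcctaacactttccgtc

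Each of the 3 NR4A windows held 4 such cores, of which 1 in Nr4a3 lies in its exon and is not printed. At least 1 core was found in 20.8% of all 32851 windows, and 4 or more in 0.231%. The full element, TGACGTCA, which contains the core on both strands, was in 1.79% of windows and in none of these. Egr2 has 5 annotated starts. The window printed, which lies inside the gene, held 2 cores and 1 CArG box. That motif was found in 1.63% of windows, in 4 of the 5 Egr2 windows and in no NR4A window. The Egr2 windows that begin at 67537619, 67537620 and 67537680 overlap and hold the same box. The NR4A binding element AAAGGTCA (1.51% of windows) was in none of these windows, and of the EGR sites GCGTGGGCG (0.612%) and GCGGGGGCG (2.91%) only the latter occurred, once, in the Nr4a1 window. These matches describe letters and were not measured as binding sites.

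Scaled by gene length, the families were each dominated by 1 gene. FPKM values, as deposited by the authors, allow levels of different genes to be set side by side. In untreated Tespa1+/+ LSKs, Nr4a1 was at 361 ± 5.24 FPKM (SD, n = 3), Egr1 at 108 ± 13.5 FPKM, Nr4a2 at 11.997 ± 0.836 FPKM, Nr4a3 at 8.53 ± 2.07 FPKM, Egr3 at 2.12 ± 0.723 FPKM and Egr2 at 0.400 ± 0.0458 FPKM. The order of the group means was the same in all 4 groups, and the only neighbours whose libraries overlapped were Nr4a3 and Egr3 in Tespa1-/- LSKs after 5-FU (1.28 ± 0.234 and 1.19 ± 0.491 FPKM). Nr4a1 made up 94.1% to 94.7% of the summed NR4A FPKM in the 4 groups, and Egr1 made up 97.0% to 98.1% of that of the 3 EGR genes. The level of Nr4a1 was 361 FPKM in untreated Tespa1+/+ LSKs and 85.3 ± 6.66 FPKM in Tespa1-/- LSKs after 5-FU. Over the 4 groups, the mean share of Nr4a2 ran from 3.15% in untreated Tespa1+/+ to 4.50% in Tespa1-/- LSKs after 5-FU. That of Nr4a3 ran from 1.22% in Tespa1+/+ LSKs after 5-FU to 2.24% in untreated Tespa1+/+ LSKs. The order of Nr4a2 and Nr4a3 depends on the scale, since Nr4a3 (11028 bases counted) is longer than Nr4a2 (6363 bases) and had the higher mean in CPM in untreated Tespa1+/+ LSKs, where it was above Nr4a2 in 2 of the 3 libraries.

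**Figure D1:**
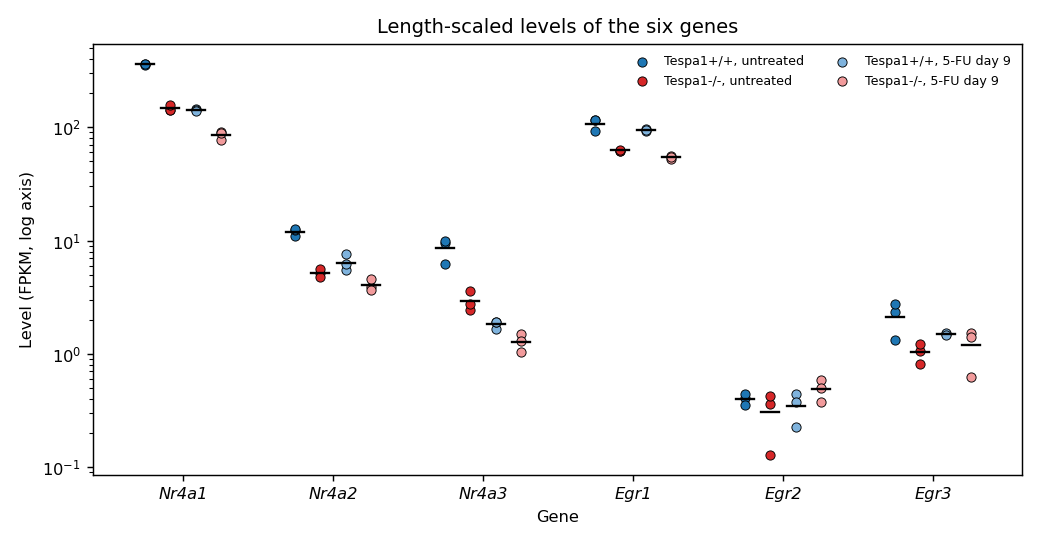
Level of each member in FPKM on a log axis, with 1 point per library, a bar at each group mean and colors for the 4 groups. Nr4a1 and Egr1 lie above 50 FPKM in every library, whereas Egr2 lies below 1 FPKM in every library.

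In untreated LSKs, all 3 NR4A genes and Egr1 were lower in Tespa1-/- than in Tespa1+/+ mice. A quasi-likelihood test in edgeR, adjusted by Benjamini-Hochberg over 17055 genes, called 4 of the 6 members lower and 0 higher, and 2 (Egr2 and Egr3) did not pass the threshold. Over all genes tested, 3.59% were called lower and 1.64% higher. The median log2 fold change of the 6 members was -1.13, against 0.01 over all genes tested. Gene coordinates below are of GRCm38.

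Nr4a1 (ENSMUSG00000023034, chromosome 15, 101266846 to 101274792), known as Nur77 and induced by antigen receptor signals in lymphocytes, was at 909, 890.2 and 915 CPM in untreated Tespa1+/+ LSKs. In untreated Tespa1-/- LSKs it was at 350.4, 349.8 and 391 CPM. The groups were thus far apart, and the spread within each was small. The difference was 2.48-fold with a log2 fold change of -1.31 and a standard error (SE) of 0.05 (adjusted p = 6.73e-06, edgeR). Nr4a2 (ENSMUSG00000026826, chromosome 2, 57106830 to 57124003), known as Nurr1 for its part in dopaminergic neurons, was at 70.8, 80.2 and 81.0 CPM in Tespa1+/+ and at 33.1, 36.0 and 30.5 CPM in Tespa1-/- LSKs, again without overlap. It was 2.33-fold lower (log2 fold change -1.22, SE 0.09, adjusted p = 0.000261, edgeR). Nr4a3 (ENSMUSG00000028341, chromosome 4, 48045153 to 48086447), known as Nor1, was at 106, 111 and 69.0 CPM in Tespa1+/+ LSKs. In Tespa1-/- LSKs it was at 39.3, 27.1 and 30.5 CPM. Its groups did not overlap although the last of the Tespa1+/+ libraries was well below the others, and it had the largest fold of the family, 2.94 (log2 fold change -1.56, SE 0.20, adjusted p = 0.00342, edgeR).

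Egr1 (ENSMUSG00000038418, chromosome 18, 34859823 to 34864984), a zinc finger factor that restrains HSC division, was at 699, 883 and 880.1 CPM in untreated Tespa1+/+ LSKs and at 464, 468 and 482 CPM in untreated Tespa1-/- LSKs. The first Tespa1+/+ library was the lowest of its group, but it was still above every Tespa1-/- library. The difference was 1.74-fold (log2 fold change -0.80, SE 0.08, adjusted p = 0.00128, edgeR). Egr3 (ENSMUSG00000033730, chromosome 14, 70077203 to 70082614), which acts with Egr2 in T cell tolerance, was at 23.0, 13.2 and 27.2 CPM in Tespa1+/+ and at 8.08, 10.4 and 12.1 CPM in Tespa1-/- LSKs. Although no library overlapped, the test did not call Egr3 (log2 fold change -1.05, 95% interval -1.67 to -0.43, adjusted p = 0.0685, edgeR). Without the second Tespa1+/+ library, the lowest of its group, the log2 fold change was -1.30 and the adjusted p 0.0179, and DESeq2 on all 6 libraries gave 0.0023. Egr2 (ENSMUSG00000037868, chromosome 10, 67535475 to 67542188), known for its part in myelination and in macrophage differentiation, rested on 62, 55 and 43 counts in Tespa1+/+ and 45, 52 and 16 counts in Tespa1-/- LSKs. These are 1.95 to 2.44 and 0.698 to 2.31 CPM, overlapping ranges, and the 95% interval of the log2 fold change of -0.40 ran from -1.46 to 0.65 (adjusted p = 0.711, edgeR). The interval holds the log2 fold changes of Nr4a1, Nr4a2, Egr1 and Egr3 as well as 0.

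For 5 of the 6 members every Tespa1-/- library was below every Tespa1+/+ library, which held for 13.4% of all genes tested (p = 0.1 in an exact two-sided permutation, the lowest value that can be had with 3 libraries in each group). Granule-producing progenitor genes such as Mpo and Elane moved with genotype in these libraries as well, since the summed level of 4 of them was 2524 to 2617 CPM in Tespa1+/+ and 3446 to 3641 CPM in Tespa1-/- LSKs. LSK and stem cell markers summed to 1564 to 1639 and 1297 to 1345 CPM, respectively. The part of cell composition in the lower NR4A and EGR levels was not tested, and in bulk libraries fewer cells with a transcript and less transcript per cell cannot be told apart.

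**Figure D2:**
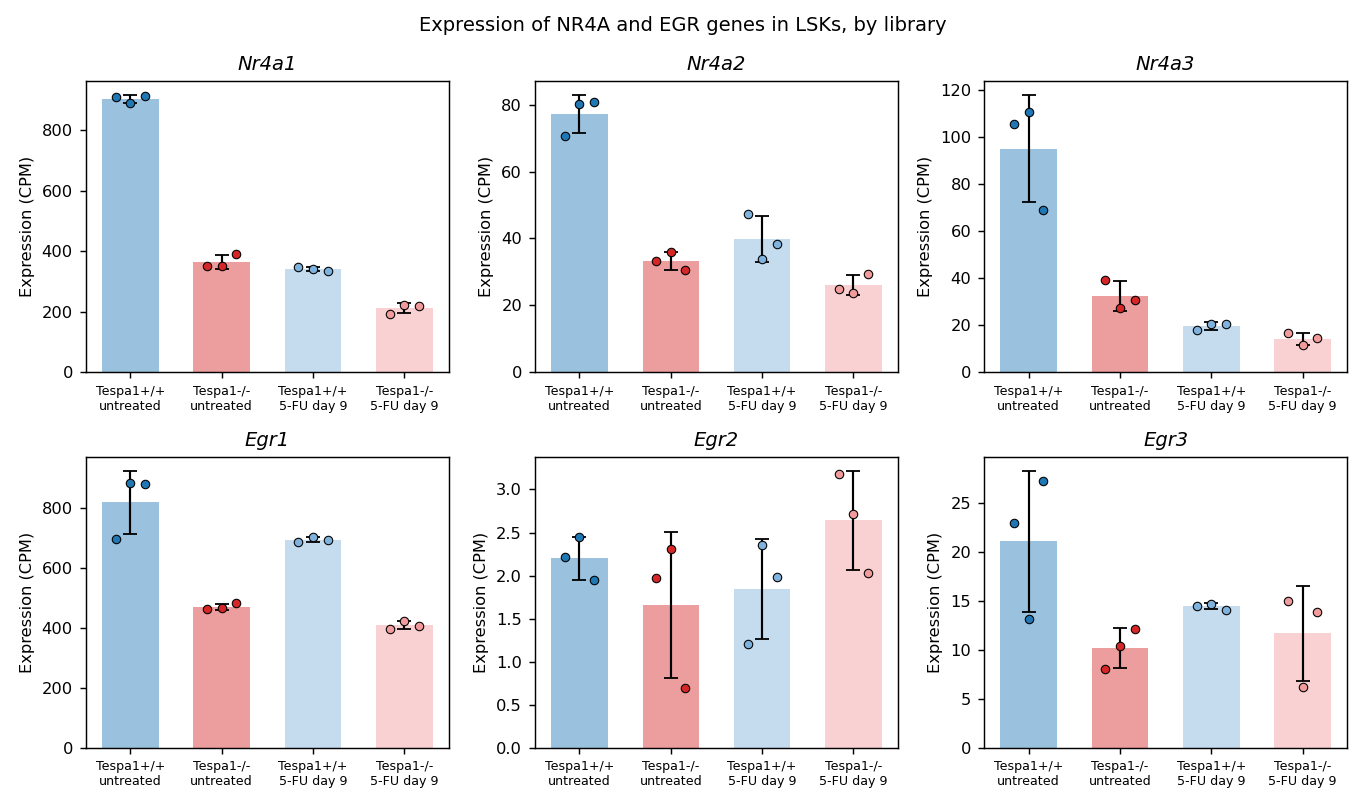
Expression of the 6 members in CPM on linear axes that start at 0, with 1 point per library, bars at the group mean and error bars of 1 SD (n = 3). Untreated Tespa1+/+ libraries are the highest of the 4 groups for Nr4a1, Nr4a2 and Nr4a3, Egr1 follows genotype more than treatment, and the groups of Egr2 overlap.

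After 5-FU, Nr4a1, Nr4a2 and Egr1 were lower in Tespa1-/- LSKs. edgeR's test on the 6 libraries at day 9 called 3 of the 6 members lower and 0 higher among 17239 genes tested, of which 5.78% were called lower and 7.34% higher. Nr4a1, Nr4a2, Nr4a3 and Egr1 were named by the study for being lower in these same libraries, so their direction here is not independent evidence. The study also reported lower levels of these genes by qPCR, and did so after irradiation as well. Nr4a1 was at 349.4, 340.1 and 335 CPM in Tespa1+/+ and at 193, 223 and 218 CPM in Tespa1-/- LSKs, with no overlap. The fold was 1.62 (log2 fold change -0.70, SE 0.06, adjusted p = 0.000146, edgeR). Egr1 was at 689, 705 and 693 CPM in Tespa1+/+ and at 396, 422 and 408 CPM in Tespa1-/- LSKs, where replicates were close to each other. Its fold of 1.71 (log2 fold change -0.77, SE 0.04, adjusted p = 4.59e-06, edgeR) was close to that in untreated LSKs.

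Nr4a2 was at 47.3, 33.9 and 38.3 CPM in Tespa1+/+ and at 25.0, 23.6 and 29.3 CPM in Tespa1-/- LSKs after 5-FU. The lowest Tespa1+/+ library was close to the highest Tespa1-/- library. The log2 fold change was -0.62 (SE 0.15, adjusted p = 0.0249, edgeR), a call that was lost without Tespa1+/+ replicate 1 (adjusted p = 0.081) or replicate 3 (0.0572) or without Tespa1-/- replicate 1 (0.0877) or replicate 2 (0.0939). Nr4a3 was at 17.9, 20.5 and 20.7 CPM in Tespa1+/+ against 16.6, 11.5 and 14.4 CPM in Tespa1-/- LSKs, which did not overlap. Its log2 fold change of -0.48 did not pass the threshold (95% interval -0.87 to -0.09, adjusted p = 0.109, edgeR). Egr3 was at 14.5, 14.7 and 14.1 CPM against 15.0, 6.16 and 13.9 CPM, where the second Tespa1-/- library was less than any other. The groups overlapped (log2 fold change -0.31, 95% interval -0.97 to 0.35, adjusted p = 0.565, edgeR). Egr2 was at 1.21 to 2.35 CPM in Tespa1+/+ and at 2.03 to 3.18 CPM in Tespa1-/- LSKs (log2 fold change 0.51, 95% interval -0.39 to 1.41, adjusted p = 0.471, edgeR).

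For 4 of the 6 members every Tespa1-/- library was below every Tespa1+/+ library after 5-FU, as for 15.5% of all genes tested. In these Tespa1-/- libraries all 8 neutrophil markers, all 6 erythroid markers and all 5 basophil and mast cell markers were higher and 8 of 10 LSK and stem cell markers were lower by edgeR's adjusted p. Their part in the lower NR4A and EGR levels after 5-FU was not tested.

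5-FU itself went with lower expression of the 3 NR4A genes in Tespa1+/+ LSKs, while Egr1 lay near the threshold. Among 17002 genes tested with edgeR, 3 of the 6 members were lower at day 9 than in untreated Tespa1+/+ LSKs and 0 were higher, where 4.18% of all genes were called lower and 3.77% higher. Nr4a3 was 4.83-fold lower (log2 fold change -2.27, SE 0.18, adjusted p = 9.29e-05, edgeR), with means of 95.2 ± 22.9 and 19.7 ± 1.58 CPM (SD, n = 3). Nr4a1 was 2.65-fold lower (log2 fold change -1.40, SE 0.04, adjusted p = 6.62e-07), and Nr4a2 was 1.94-fold lower (log2 fold change -0.95, SE 0.13, adjusted p = 0.0024), both from edgeR's test. Egr1 had means of 821 ± 106 and 696 ± 8.51 CPM (SD, n = 3), and the untreated library at 699 CPM overlapped the treated ones (log2 fold change -0.24, 95% interval -0.42 to -0.05, adjusted p = 0.12, edgeR). Egr1 was called without that library (log2 fold change -0.34, adjusted p = 0.000819), by DESeq2 (0.0478) and by edgeR when all 12 libraries were fitted together (0.0428). Egr3 (log2 fold change -0.55, adjusted p = 0.239) and Egr2 (-0.25, adjusted p = 0.795) did not pass edgeR's threshold either, although for Egr3 the adjusted p was 0.0338 at a log2 fold change of -0.79 without the second untreated library. No library overlapped for 3 of the 6 members, against 14.5% of all genes. Markers of other cells also moved with 5-FU in Tespa1+/+ LSKs: the 5 B cell genes summed to 28.4 to 34.1 CPM in untreated and 85.5 to 91.3 CPM in treated libraries, where 4 of 4 tested were called higher, as were 3 of 6 erythroid genes, while of 10 LSK and stem cell genes 2 were called lower and 2 higher. Their part in the lower NR4A levels was not tested.

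In Tespa1-/- LSKs, 5-FU went with lower Nr4a1, Nr4a3 and Egr1. Of the 6 members edgeR called 3 lower and 0 higher among 17228 genes tested, of which 8.64% were called lower and 10.7% higher. Nr4a3 was 2.30-fold lower (log2 fold change -1.20, SE 0.18, adjusted p = 0.00211, edgeR) and Nr4a1 1.73-fold lower (log2 fold change -0.79, SE 0.07, adjusted p = 9.08e-05). Egr1 was 1.16-fold lower (log2 fold change -0.22, SE 0.04, adjusted p = 0.00523, edgeR), a call that was lost when all 12 libraries were fitted together (adjusted p = 0.0634). Nr4a2 did not pass the threshold (log2 fold change -0.37, 95% interval -0.63 to -0.10, adjusted p = 0.0588, edgeR), although its libraries did not overlap, which held for 4 of the 6 members and for 18.1% of all genes. DESeq2 called Nr4a2 (adjusted p = 0.0326), as did edgeR without the third treated library (0.029). The values of Egr2 (0.66, adjusted p = 0.359) and Egr3 (0.19, adjusted p = 0.736) were above 0 and did not pass edgeR's threshold. This comparison shares its untreated and its treated libraries with the comparisons of genotype, and the Tespa1+/+ comparison does likewise, so the 4 sets of values are not independent. In Tespa1-/- LSKs all 8 neutrophil and all 6 erythroid markers were called higher after 5-FU. Of 10 LSK and stem cell genes, 3 were called lower and 3 higher. The B cell genes summed to 22.4 to 25.8 CPM before 5-FU and 109 to 117 CPM after it. The part of these markers in the member values was not tested.

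The order of the 4 group means differed between members. From the highest to the lowest mean, Nr4a1 followed the order untreated Tespa1+/+ (905 ± 13.0 CPM, SD, n = 3), untreated Tespa1-/- (364 ± 23.7 CPM), Tespa1+/+ after 5-FU (341 ± 7.49 CPM) and Tespa1-/- after 5-FU (211 ± 16.4 CPM). The middle groups were neighbours whose ranges almost met, at 349.8 and 349.4 CPM. Nr4a3 had the same order, while in Nr4a2 the middle groups were exchanged and overlapped (33.2 ± 2.73 CPM in untreated Tespa1-/- and 39.8 ± 6.86 CPM in Tespa1+/+ after 5-FU). Egr1 had the order of Nr4a2, but here it was both Tespa1+/+ groups that overlapped, followed by untreated Tespa1-/- (471 ± 9.52 CPM) and Tespa1-/- after 5-FU (409 ± 13.1 CPM).

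**Figure D3:**
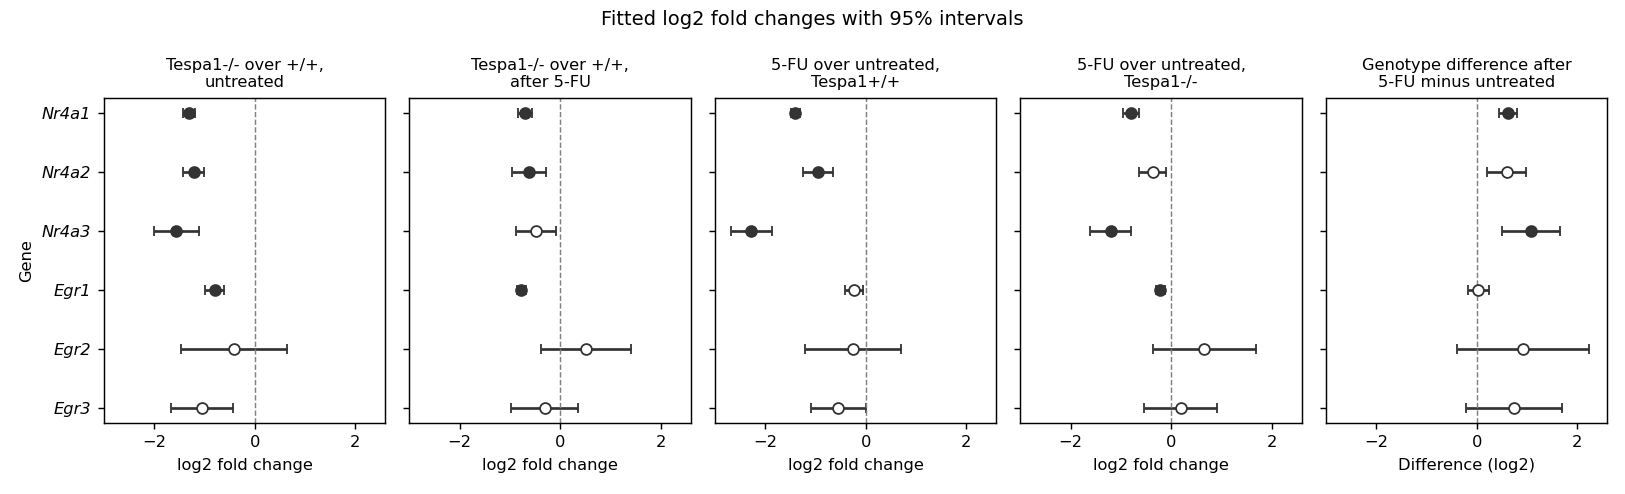
Log2 fold changes of the 6 members from edgeR with 95% intervals, for the 4 comparisons of groups and for the difference between the genotype effects after 5-FU and in untreated LSKs. Filled points have an adjusted p below 0.05, and the wide intervals of Egr2 and Egr3 cross 0 in 9 of the 10 estimates.

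Whether the genotype difference itself changed with 5-FU was tested as the interaction of genotype and treatment over the 12 libraries. A positive value means that the log2 fold change of Tespa1-/- over Tespa1+/+ LSKs was higher after 5-FU than in untreated LSKs, either as a smaller deficit or with a turned sign. Of the 6 members 2 passed the threshold, both with positive values, among 18696 genes of which 3.02% were called with a positive and 1.99% with a negative value. Nr4a1 had an interaction of 0.62 on the log2 scale (SE 0.08, 95% interval 0.45 to 0.80, adjusted p = 0.000648, edgeR), and this call held in each of the 12 fits that left out 1 library. For Nr4a3 the value was 1.08 (SE 0.27, 95% interval 0.50 to 1.66, adjusted p = 0.0359, edgeR), and it was lost in 9 of those 12 fits, with adjusted p up to 0.0964. It held only without replicate 3 of untreated Tespa1+/+, replicate 1 of untreated Tespa1-/- or replicate 2 of Tespa1-/- after 5-FU LSKs. Nr4a2 had a value of similar size to that of Nr4a1 with a wider interval (0.60, 95% interval 0.21 to 0.99, adjusted p = 0.0783, edgeR). DESeq2 called it (adjusted p = 0.0328), as did edgeR without the first Tespa1+/+ library after 5-FU (0.0286). Egr1 had a value of 0.03 with a 95% interval of -0.18 to 0.24 (adjusted p = 0.917, edgeR), so that a shift as large as the estimate for Nr4a1 lay outside its interval. Egr2 (0.92, 95% interval -0.38 to 2.22) and Egr3 (0.74, 95% interval -0.21 to 1.69) were too variable to place, with adjusted p of 0.468 and 0.411 from edgeR's test. Tespa1 moved in the other direction, with an interaction of -1.05 (SE 0.15, adjusted p = 0.00104, edgeR), that is, a larger deficit after 5-FU.

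The contrast between Nr4a1 and Egr1 can be read within each library from the ratio of their counts, which does not depend on any scaling of libraries. This measure was chosen after the values were seen and is given as a description, with no test. In untreated Tespa1+/+ LSKs the ratio was 1.301, 1.01 and 1.04, and in untreated Tespa1-/- LSKs it was 0.755, 0.747 and 0.811, with no overlap. After 5-FU it was 0.507, 0.482 and 0.483 in Tespa1+/+ LSKs and 0.487, 0.529 and 0.535 in Tespa1-/- LSKs, which overlapped. The group means after 5-FU were 0.491 ± 0.0144 and 0.517 ± 0.0265 (SD, n = 3).

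**Figure D4:**
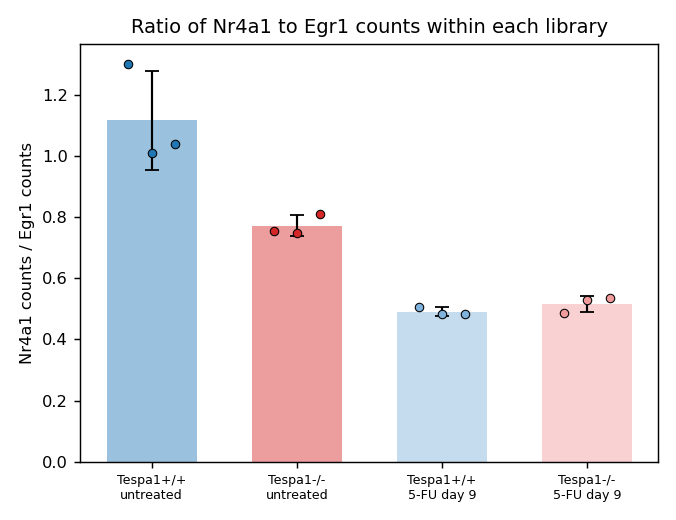
Ratio of Nr4a1 to Egr1 counts in each library, with bars at the group mean and error bars of 1 SD (n = 3) on an axis that starts at 0. The genotypes are apart in untreated LSKs and overlap after 5-FU, where all 6 libraries lie between 0.482 and 0.535.

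Over the 12 libraries, log2(CPM + 1) of the 3 NR4A genes went together, with Pearson's r of 0.95 between Nr4a1 and Nr4a2, 0.94 between Nr4a1 and Nr4a3 and 0.87 between Nr4a2 and Nr4a3. Egr1 was closer to Nr4a2 (r = 0.88) and Nr4a1 (0.82) than to Nr4a3 (0.66), and Egr2 had r between -0.13 and -0.03 with the other 5. These values mostly reflect the 4 group means, which the libraries of a group share, and they are given as descriptions. Of 14928 genes with a mean of at least 1 CPM, those most like Nr4a1 were Kdm6b, Dusp5 and Laptm5 (r = 0.99 for each). Kdm6b encodes a histone demethylase that removes H3K27 methylation, and Dusp5 a phosphatase of nuclear ERK. Those most like Nr4a2 were Mcl1, Fosl2 and Spry1 (r = 0.97 for each), which encode a survival factor of the BCL2 family, an AP-1 subunit and an inhibitor of receptor tyrosine kinase signals. Nr4a3 was most like Vegfa (r = 0.98), Ptgs2 (0.98) and Nfkbid (0.97), and Egr1 most like Ctla2a (0.98), Tcf7l2 (0.98) and Tut7 (0.97). For Egr3 (Adnp, Ric1 and Gm42930, r = 0.87 to 0.91) and Egr2 (2900052L18Rik, Amigo2 and Tmem131, r = 0.87 to 0.92) the nearest genes had lower r over the 12 libraries. Within groups, that is, over deviations from the group means, the order was another: r was 0.71 to 0.89 for the neighbours of Egr2 and Egr3, and 0.71, -0.042 and 0.41 for Kdm6b, Dusp5 and Laptm5 with Nr4a1.

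Other immediate-early genes had differences in the same direction as the NR4A genes. Of 28 such genes, 25 were lower and 1 higher in untreated Tespa1-/- LSKs by edgeR with Benjamini-Hochberg adjustment, with a median log2 fold change of -0.68. That 1 gene was Myc, which is named after its value was seen (log2 fold change 0.44, SE 0.10, adjusted p = 0.0363, edgeR). The 4 with the lowest adjusted p were Dusp5 (-1.26), Fosl2 (-1.34), Sik1 (-1.13), a kinase that restrains CREB coactivators, and Mcl1 (-0.68). After 5-FU, 14 of the 28 were lower and 0 higher, with a median of -0.26, led by Sik1 (-0.69), Zfp36 (-0.44), which encodes an mRNA decay factor, Dusp5 (-0.82) and Fosl2 (-0.79). The medians over all genes tested were 0.01 and -0.01. Calls over all genes tested were 3.59% lower and 1.64% higher in untreated LSKs, and 5.78% lower and 7.34% higher after 5-FU. From untreated to 5-FU, 23 were lower in Tespa1+/+ LSKs and 21 in Tespa1-/- LSKs, and 0 were higher in either, where 4.18% and 8.64% of all genes were called lower and 3.77% and 10.7% higher.

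For the other immediate-early genes as well, part of the list had a positive interaction. It was called for 15 of the 28 genes, with a median of 0.43 against -0.02 over all genes tested. A negative value was called for 0 of the 28. Calls over all genes tested were 3.02% positive and 1.99% negative. The lowest adjusted p belonged to Klf2 (0.99, SE 0.08, adjusted p = 8.07e-06), a factor of lymphocyte quiescence, Junb (0.61), Gadd45b (1.09) and Tnfaip3 (1.42), a brake on NF-κB. After 5-FU the genotype log2 fold changes of Klf2 (0.18) and Tnfaip3 (0.43) were above 0 and did not pass the threshold. Fos (0.11) and Jun (0.01), named after their values were seen, were not called in the interaction. Both were lower in Tespa1-/- LSKs in each treatment. Heat-shock genes, which cell stress also induces, showed 0 lower and 2 higher of 10 in untreated Tespa1-/- LSKs (Hsph1, 0.59, and Hspa1b, 0.43, a call that was lost when all 12 libraries were fitted together) and 0 lower and 1 higher (Hsph1, 0.39) after 5-FU, and 0 were called in the interaction in edgeR's test. They were lower after 5-FU in both genotypes, 7 of 10 in each, with Hspa1b at -1.82 in Tespa1+/+ and -1.70 in Tespa1-/- LSKs.

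**Figure D5:**
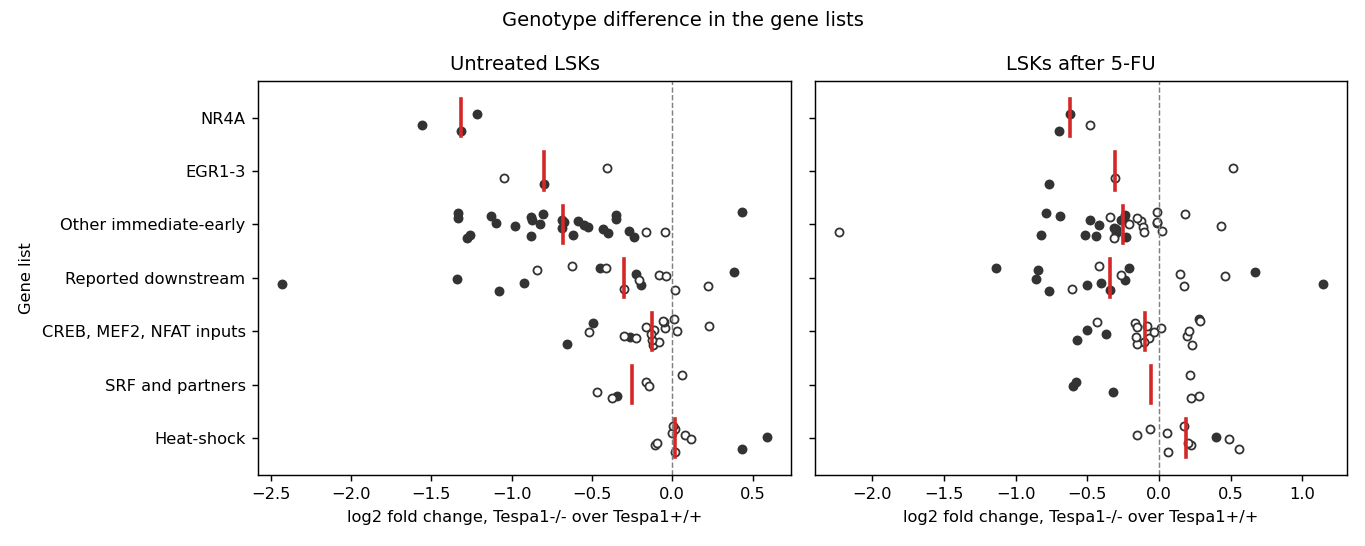
Log2 fold changes of Tespa1-/- over Tespa1+/+ LSKs for the genes of 7 lists, untreated on the left and after 5-FU on the right, with filled points for an adjusted p below 0.05 and a red line at each list's median. The median of the other immediate-early genes is -0.68 in untreated LSKs and -0.26 after 5-FU, and that of the heat-shock genes is 0.02 and 0.19.

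Upstream regulators of the members were called in part, which can be read against the 3.59% of all genes called lower in untreated LSKs and the 5.78% after 5-FU. Among 6 genes of serum response factor and its partners, which drive the EGR promoters, Srf was lower in untreated Tespa1-/- LSKs (-0.34, adjusted p = 0.0205, edgeR) and 0 were higher, and after 5-FU Mkl2 (-0.60), Elk3 (-0.58) and Elk4 (-0.33) were lower and 0 higher. The list's medians were -0.25 and -0.05. Srf had a positive interaction (0.62, adjusted p = 0.00231). Of 18 genes of CREB, MEF2, NFAT and calcineurin, which pass calcium signals to NR4A promoters, 3 were lower and 0 higher in untreated LSKs, namely Mef2d (-0.49), Nfatc2 (-0.66) and the calcineurin subunit gene Ppp3ca (-0.26). After 5-FU the lower ones were Mef2c (-0.57), Mef2a (-0.51) and Nfatc1 (-0.37), and Hdac7 was higher (0.28). The medians of this list were -0.13 and -0.10. The calls of Srf and Ppp3ca in untreated LSKs and of Elk4 and Hdac7 after 5-FU were lost in most of the fits that left out 1 library, and those of Nfatc2 in untreated LSKs and Nfatc1 after 5-FU in 3 of 6.

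Partners that act with the members were also followed. Of the EGR partners, the corepressor genes Nab2 (-0.84, SE 0.21, adjusted p = 0.0265, edgeR) and Nab1 (-0.31, SE 0.08, adjusted p = 0.0388) were lower in Tespa1-/- LSKs after 5-FU. The call of Nab1 was lost in each of the 6 fits that left out 1 library and that of Nab2 in 4 of them. In untreated LSKs none of the 3 was called by edgeR, where Nab2 had a log2 fold change of -0.84 and an adjusted p of 0.0741. Egr4 had between 0 and 59 counts in a library and was called in none of these comparisons. The retinoid X receptor genes, whose products pair with Nr4a1 and Nr4a2, did not pass the threshold except Rxrg in untreated LSKs, which rested on 0 counts in each Tespa1+/+ library and 22, 11 and 12 counts in the Tespa1-/- libraries and was called in 0 of the 6 edgeR fits that left out 1 library (adjusted p = 0.0632 to 0.185).

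Genes reported downstream of NR4A or EGR factors went in both directions. Of 17, 7 were lower and 1 higher in untreated Tespa1-/- LSKs (median log2 fold change -0.30), and 9 were lower and 2 higher after 5-FU (median -0.34). Of all genes tested, 3.59% were lower and 1.64% higher in untreated LSKs (median 0.01), and 5.78% were lower and 7.34% higher after 5-FU (median -0.01). Cdkn1a, which encodes the cell cycle inhibitor p21 and is a target of EGR1, was at 144, 145 and 163 CPM in untreated Tespa1+/+ and at 61.0, 58.0 and 59.1 CPM in untreated Tespa1-/- LSKs. It was also lower after 5-FU, with 89.9, 84.0 and 95.2 CPM against 51.1, 52.3 and 45.6 CPM. The log2 fold changes were -1.34 (SE 0.07, adjusted p = 3.31e-05) and -0.86 (SE 0.09, adjusted p = 0.000274) in edgeR's test. The interaction of Cdkn1a was 0.49 (adjusted p = 0.02, edgeR), a call that held in 7 of the 12 fits that left out 1 library. Thbs1, which encodes the matrix protein thrombospondin 1, was at 18.6, 17.2 and 23.2 CPM against 4.56, 4.39 and 2.01 CPM in untreated LSKs. After 5-FU it was at 15.9, 12.9 and 12.9 CPM in Tespa1+/+ against 25.2, 33.2 and 34.0 CPM in Tespa1-/- LSKs, so the order of the genotypes was turned. The log2 fold changes of Thbs1 were -2.43 and 1.14 (adjusted p = 0.00302 and 0.00191 from edgeR's test), with an interaction of 3.57 (SE 0.36, adjusted p = 8.48e-05). Runx1 (-0.34) and Ccnd2 (-0.50), which encode a master factor of HSC emergence and a D-type cyclin, were lower after 5-FU, and Ccnd2 had an interaction of -0.30 (adjusted p = 0.00556, edgeR). Tgfb1, the gene of a cytokine that holds HSCs in quiescence, had an interaction of 0.38 (adjusted p = 0.00696, edgeR). The list was compiled from general knowledge in other cell types, and counts do not show which of its genes the members regulate in LSKs.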

How the data were processed

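The authors deposited 1 table of 53465 genes with raw counts of reads per gene and FPKM values for each of the 12 libraries. A stranded kit for poly-A RNA and paired-end sequencing were used. The submitters' processing notes name CASAVA 1.8, HISAT2, StringTie, edgeR and GRCm38 without their roles, and whether counting used strand is not given in the sources used here. No annotated gene overlaps a member in GENCODE M21. Column names abbreviate the groups, and those that begin with F were read as 5-FU.

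Counts were tested with edgeR 4.0.16 in R 4.3.3 (filterByExpr with its minimum count of 10, TMM, glmQLFit and glmQLFTest, Benjamini-Hochberg adjustment over all genes tested, called at an adjusted p below 0.05), on the 6 libraries of each comparison or, for the interaction, on all 12. Lower and higher refer to such calls. Standard errors are those of the fitted log2 fold change. CPM used TMM factors over the 12 libraries. FPKM as deposited by the authors served only to compare levels between genes. Single members were also compared with two-sided exact permutation tests. Before use, the main edgeR test of each comparison was also checked on simulated counts with known fold changes. The other procedures were not checked in this way.

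The members and gene lists were chosen with earlier results of these data known, and the ratio of Nr4a1 to Egr1 counts was added after the values were seen. Named by rule are all 6 members, Tespa1 and the 3 genes most correlated with each member. Up to 4 called genes per list and comparison, those with the lowest adjusted p, were also named. Egr4, Myc, Fos, Jun and the markers Kit, Ly6a, Mpo and Elane were named outside this rule. Replicates differed by more than sampling noise, so each library was counted as 1 sample. Alternatives were DESeq2 1.42.0, RLE factors, library totals, no filter, at least 10 counts in every library, a block for replicate number, leaving out single libraries, a fold change over 1.5 and all 12 libraries in one fit. TPM in place of FPKM cannot change a share within a library. Python 3.11.15, pandas 2.3.3, NumPy 2.4.6 and matplotlib 3.10.9 were used for the other steps.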

Additional observations from a re-analysis of the deposited data

Results flagged for a closer look

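The genotype difference after 5-FU differed from that in untreated LSKs, by edgeR's test of the interaction with Benjamini-Hochberg adjustment, for the following genes named above. Among the members these were Nr4a1 (0.62 on the log2 scale) and Nr4a3 (1.08). Among the genes of the other lists they were Klf2 (0.99), Junb (0.61), Gadd45b (1.09), Tnfaip3 (1.42), Srf (0.62), Cdkn1a (0.49), Tgfb1 (0.38), Thbs1 (3.57) and Ccnd2 (-0.30), and Tespa1 itself had -1.05. For Cdkn1a the call held in 7 of the 12 fits that left out 1 library, and for Nr4a3 in 3 of them, whereas it held in all 12 for the others. In the Tespa1-/- libraries after 5-FU, summed neutrophil and erythroid markers were higher than in the other groups. Summed LSK and stem cell markers were lower there. Against untreated Tespa1-/- LSKs, 3 of the 10 LSK and stem cell genes were called lower and 3 higher. The part of these markers in the differences above was not tested. Apart from the fits that left out 1 library, groups of 3 libraries were not tested for single outlying libraries.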

How the results depend on the processing

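All 6 members kept their direction in the alternatives run, except that Egr3 between untreated and treated Tespa1-/- LSKs was at -0.034 (log2) without the first treated library and ranged up to 0.49 without 1 other, and that the interaction of Egr1 was -0.014 with library totals in place of TMM, -0.024 to 0.13 over the fits that left out 1 library, with values below 0 without replicate 2 or 3 of untreated Tespa1+/+ or replicate 2 of Tespa1-/- LSKs after 5-FU. The number of members called with a positive interaction was 1 to 2 over the fits that left out 1 library, and it was 1 in 8 of these 12 fits. Calls of Nr4a1 and of the NR4A genes and Egr1 in untreated LSKs held in every fit. For Nr4a2 between untreated and treated Tespa1-/- LSKs the adjusted p was 0.0326 from DESeq2 and 0.029 without the third treated library. The cause of these changes was not tested.

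The replicate numbers did not pair the libraries, since deviations of same-numbered libraries correlated at -0.05 to 0.03, and with the replicate number as a block no call of a member changed (Nr4a2 after 5-FU, adjusted p = 0.0403, and Nr4a3 in the interaction, 0.0486, from edgeR). Outside the members it ended the calls of Tespa1, Srf, Ppp3ca and Rxrg in untreated LSKs and of Nab1 and Hdac7 after 5-FU. The block reduced the genes called lower in untreated LSKs from 612 to 338. Leaving out 1 untreated Tespa1-/- library reduced them to 262, 250 or 283. Leaving out 1 untreated Tespa1+/+ library reduced them to 520, 392 or 493. Without the filter on low counts the median log2 fold change of all genes moved to 0.22 in untreated LSKs, -0.38 between treatments in Tespa1-/- LSKs and -0.39 in the interaction. Egr2 rested on 16 to 87 counts per library, which limits its precision, and it varied between replicates (16 to 52 counts in untreated Tespa1-/- LSKs).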
